A study of Mus musculus with 6 samples.

Results

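The 29 genes described here cover most steps of cholesterol synthesis, the SREBP proteins that control it with their regulators, and 4 targets in sterol transfer and fatty acid synthesis. They were chosen by gene symbol, as 29 of the 30323 gene IDs of the deposited table, from knowledge of the pathway and with earlier results of the same comparison known. All 29 passed the filter on low counts, which left 14697 genes for testing. The libraries came from whole hearts of mouse embryos at day 9.5 of gestation (E9.5), with 3 control libraries and 3 from hearts with a myocardial knockout of Cdc42 (MCKO), a small GTPase that organizes the actin cytoskeleton. The labels give the controls as C57BL/6 and the other group as a Cdc42 knockout, and state neither the strain of the MCKO embryos nor the Cre driver that restricts the deletion to the myocardium. The design text speaks of 3 hearts per set, and the labels tie no library to a heart or a litter, so p-values measure only the spread between these libraries, which may be technical.

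Cells build cholesterol from acetyl-CoA through the mevalonate pathway, which also yields farnesyl and geranylgeranyl groups, the lipid anchors of small GTPases such as Cdc42 itself. When sterols in the endoplasmic reticulum are low, SCAP carries the SREBP precursors to the Golgi, where they are cut to release transcription factors that switch on the sterol and fatty acid synthesis genes. INSIG proteins hold SCAP back when sterols are plentiful, and sterol export and esterification are driven in part by the LXR receptors, which respond to oxysterols. In the embryo, cholesterol is needed for membranes and for Hedgehog signalling.

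Library totals ran from 19256840 to 34246477 estimated counts, so that 3 counts in a library equalled 0.0876 to 0.156 CPM. Levels below are normalised CPM, counts scaled to a common library size in which each total is adjusted by edgeR's TMM factors, and fold changes are log2 of MCKO over control with their standard error (SE). Cdc42 stood at 390, 371 and 413 normalised CPM in the controls and at 253, 246 and 245 in MCKO (log2 fold change -0.66, SE 0.047, edgeR adjusted p = 2.93e-06). The remaining Cdc42 transcripts come from whole hearts, in which other cell types are also present, and which cells hold them was not tested. A gene was called when its adjusted p in edgeR's quasi-likelihood test, adjusted over all tested genes, was under 0.05, and 58.4% of all tested genes were called.

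Among the sterol synthesis enzymes, transcripts of 12 of 20 fell in MCKO hearts and none rose. The deepest fall was in Hsd17b7, the 3-ketosteroid reductase of C4 demethylation, at 3.02-fold, followed by the acetoacetyl-CoA thiolase Acat2 at 1.81-fold. The transcription factor gene Srebf1, its regulator Insig2 and the desaturase gene Scd2 rose, while the lipogenic genes Fasn and Acly fell. Over the 29 genes, 3 rose and 16 fell, and 10 were not called. Of all tested genes 29.3% rose and 29.1% fell. Among 9578 tested genes with mean levels in the range of the 29, 10.21 to 1198 normalised CPM, 30.6% rose and 33.5% fell. In that range 64.1% were called, beside 65.5% of the 29. Because the 29 genes were listed with this comparison known, nothing is read from their share.

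The median log2 fold change was -0.18 over the 29 genes and -0.21 over the 20 enzymes, beside 0.00 over all tested genes. A fall of at least 1.5-fold was called for 4 genes, Hsd17b7, Acat2, Nsdhl and Mvk, and for 9.14% of all tested genes. The control and MCKO libraries did not overlap for 23 genes, against 64.7% of all tested genes. In 17 of these every MCKO library was lower (32.3% of all tested genes), and in 6 every MCKO library was higher (32.4%). Summed over the 20 enzymes, the level was 1383, 1363 and 1469 normalised CPM in the controls and 1181, 1163 and 1166 in MCKO, so the lowest control sum lay above the highest MCKO sum.

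**Figure D1:**
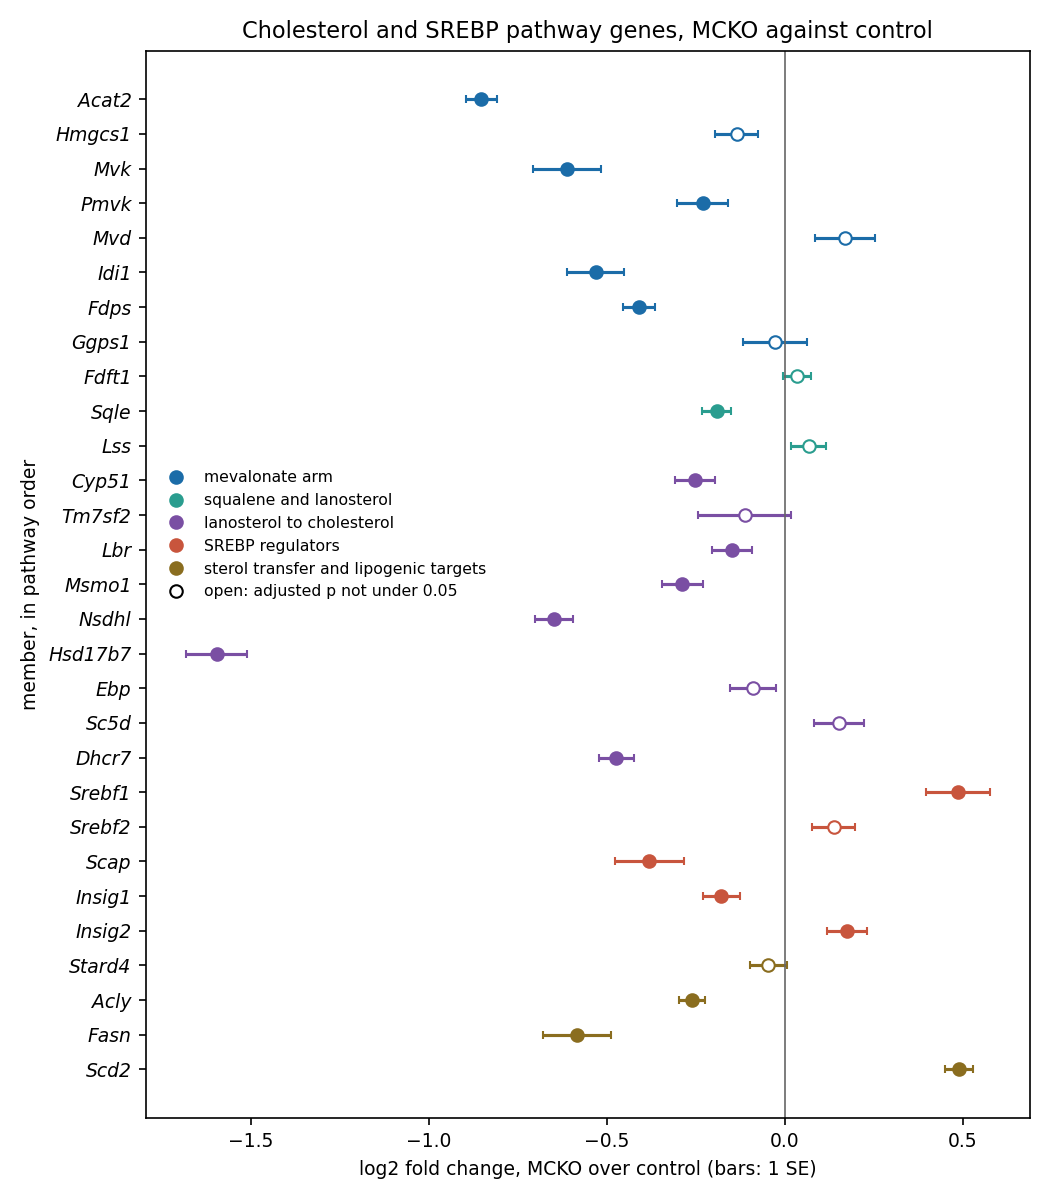
Log2 fold change of MCKO over control (x axis) for the 29 genes in pathway order (y axis), coloured by role, with bars of 1 SE; filled points mark genes called by edgeR at an adjusted p under 0.05. Hsd17b7 lies furthest left at -1.60, and Scd2 and Srebf1 lie furthest right at 0.49.

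The mevalonate arm runs from acetyl-CoA to farnesyl and geranylgeranyl diphosphate, and 5 of its 8 genes fell (29.1% of all tested genes). Acat2 (ENSMUSG00000023832, minus strand, GRCm38 chromosome 17, 12942890 to 12960747), which joins acetyl-CoA units into acetoacetyl-CoA, held 69.9, 69.2 and 68.9 normalised CPM in the controls. The MCKO libraries held 38.6, 37.7 and 39.0. Each group was tight and the groups lay far apart (log2 fold change -0.85, SE 0.044). The related gene Acat3 shares 97.7% of its sequence with Acat2 over 68.9% of its longest transcript, but held only 14 to 32 counts in a library where Acat2 held 906 to 2274.

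Hmgcs1, which makes HMG-CoA from acetoacetyl-CoA, stood at 256, 243 and 288 normalised CPM in the controls and at 244, 240.0 and 232 in MCKO. Its groups overlapped and it was not called (log2 fold change -0.14, SE 0.061). It was called, as lower, without control replicate 2 (-0.19, edgeR adjusted p = 0.0146) and with library totals in place of TMM scaling (-0.20, 0.0232). The next step with data, mevalonate kinase Mvk, stood at 24.2, 29.1 and 23.1 in the controls and at 15.4, 16.7 and 17.8 in MCKO. Here the groups were separate, with control replicate 2 the highest library (log2 fold change -0.61, SE 0.096). Phosphomevalonate kinase Pmvk ran from 33.0 to 37.4 in controls and from 27.7 to 32.03 in MCKO (log2 fold change -0.23, SE 0.072). That call was lost without control replicate 1 (edgeR adjusted p = 0.0912), without MCKO replicate 1 (0.0916) and without MCKO replicate 3 (0.0606). The decarboxylase Mvd, which makes isopentenyl diphosphate, overlapped between groups at 30.6 to 39.2 in controls and 37.4 to 40.2 in MCKO, and was called, as higher, only without control replicate 2 (0.26, edgeR adjusted p = 0.00753).

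Idi1, the isomerase that balances isopentenyl and dimethylallyl diphosphate, stood at 113, 112 and 138 normalised CPM in the controls and at 87.4, 82.8 and 81.9 in MCKO. It fell with no overlap (log2 fold change -0.53, SE 0.081), and with its near-identical copy Gm13502 added the value was -0.55. Farnesyl diphosphate synthase Fdps, at the branch point between sterols and isoprenoids, stood at 103.4, 102.5 and 102.6 in the controls and at 77.2, 74.2 and 81.0 in MCKO (log2 fold change -0.41, SE 0.045). Its 3 control libraries were nearly equal and all lay above the MCKO libraries. Exons of Fdps share 1124 bases on the same strand with Gm43738, which is not among the deposited gene IDs. Ggps1, which extends farnesyl to geranylgeranyl diphosphate, the anchor donor for Cdc42, stood at 38.6, 38.8 and 47.7 in controls and at 44.0, 39.1 and 39.9 in MCKO. Its groups overlapped and it was not called (log2 fold change -0.03, SE 0.089). Exons of Ggps1 overlap those of Arid4b on the opposite strand, and the strand setting of the counting is not given in the sources used here.

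The squalene and lanosterol steps differed little between the groups. Fdft1, squalene synthase and the first enzyme committed to sterols, ran from 89.9 to 91.2 normalised CPM in controls and from 91.2 to 93.6 in MCKO, a log2 fold change of 0.04 (SE 0.039) that was not called. With library totals in place of TMM scaling its value was -0.03, and its exons overlap Ctsb on the opposite strand over 774 bases. A near-identical copy of Fdft1, Gm6781, held 0 to 3 counts in a library. Sqle, the squalene epoxidase, stood at 87.2, 88.5 and 84.9 in the controls and at 76.0, 76.6 and 75.7 in MCKO. It fell modestly with no overlap (log2 fold change -0.19, SE 0.041). Lss, which closes the ring to give lanosterol, ran from 45.8 to 49.1 in controls and from 49.7 to 50.7 in MCKO and was not called (log2 fold change 0.07, SE 0.049).

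From lanosterol to cholesterol, 6 of 9 genes fell (29.1% of all tested genes), and the values spread most widely. Hsd17b7 (ENSMUSG00000026675, minus strand, GRCm38 chromosome 1, 169949535 to 169969241) stood at 54.9, 55.8 and 65.4 normalised CPM in the controls and at 20.3, 20.3 and 17.6 in MCKO. The lowest control library lay far above the highest MCKO library (log2 fold change -1.60, SE 0.086). Of all tested genes 264, or 1.8%, had a lower fold change than Hsd17b7. Nsdhl, the decarboxylating dehydrogenase that acts just before Hsd17b7 on the same carbon, stood at 33.6, 32.9 and 32.4 in the controls and at 21.3, 21.3 and 20.5 in MCKO. Its fall was less deep (log2 fold change -0.65, SE 0.053). Msmo1, the oxidase that opens C4 demethylation, ran from 72.7 to 82.4 in controls and from 60.9 to 64.9 in MCKO (log2 fold change -0.29, SE 0.057). All 3 enzymes of C4 demethylation therefore fell, by unequal amounts.

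Cyp51, the 14-demethylase that first acts on lanosterol, stood at 102, 90.7 and 99.98 normalised CPM in the controls and at 82.0, 78.9 and 85.2 in MCKO (log2 fold change -0.25, SE 0.056). Its exons overlap Akap9 on the opposite strand. The C14 reductase step is served by a pair of genes, Tm7sf2 and Lbr, the second also a receptor of the nuclear lamina. Tm7sf2 was low and overlapping at 9.06 to 12.1 in controls and 8.76 to 11.1 in MCKO, and shares 532 exon bases with Vps51 on the same strand. Lbr ran from 107 to 122.8 in controls and from 101 to 106 in MCKO and was called by a narrow margin (log2 fold change -0.15, SE 0.056, edgeR adjusted p = 0.0457). That call was lost under 9 of 15 alternative settings, with adjusted p from 0.0508 to 0.148.

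Dhcr7, the 7-dehydrocholesterol reductase whose loss causes Smith-Lemli-Opitz syndrome, stood at 42.0, 43.7 and 43.4 normalised CPM in the controls and at 30.4, 31.2 and 31.4 in MCKO. The groups were far apart relative to their spread (log2 fold change -0.47, SE 0.049). Ebp, the sterol isomerase, ran from 15.6 to 15.98 in controls and from 14.1 to 15.3 in MCKO and was not called (log2 fold change -0.09, SE 0.066). Sc5d, the lathosterol desaturase that feeds Dhcr7, stood at 39.1, 34.1 and 41.4 in controls and at 43.9, 41.8 and 42.1 in MCKO. Every MCKO library was above every control library, and the difference was not called (log2 fold change 0.15, SE 0.071) unless control replicate 3 was left out (0.22, edgeR adjusted p = 0.0137).

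**Figure D2:**
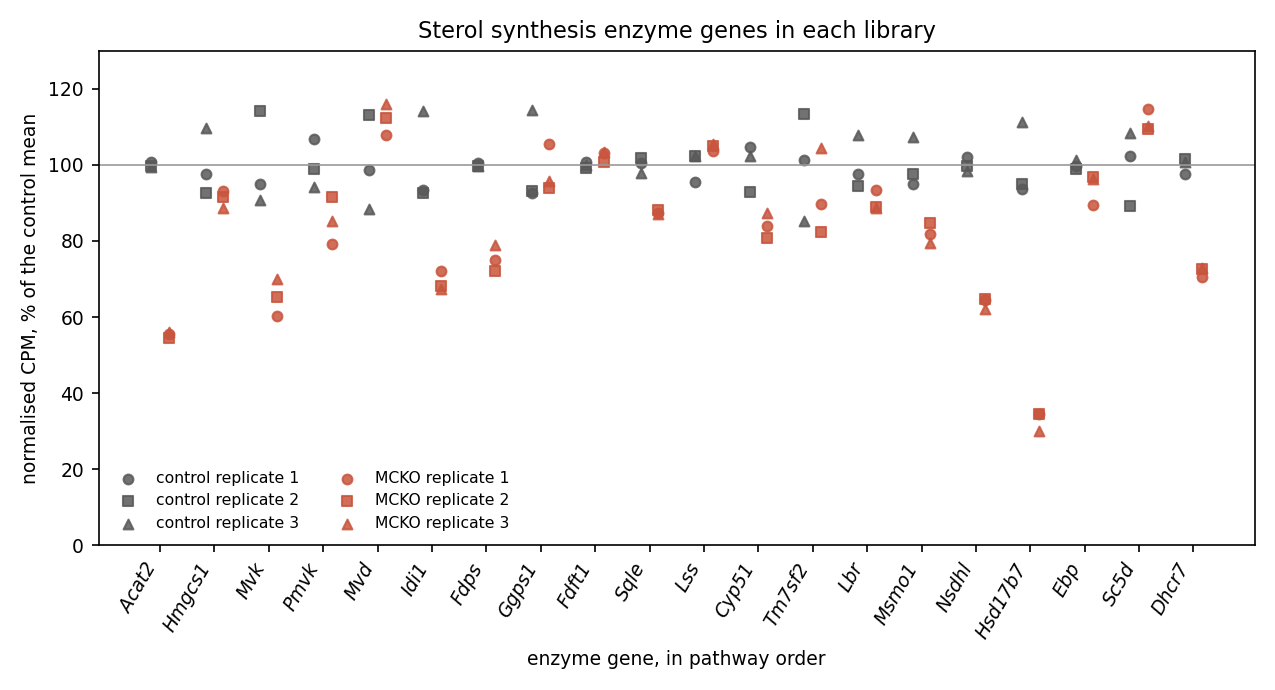
Normalised CPM of each library as a percentage of the gene's control mean (y axis) for the 20 synthesis enzymes in pathway order (x axis), with grey control and red MCKO points whose shape gives the replicate. Hsd17b7 shows the widest gap, from controls at 54.9 to 65.4 normalised CPM and MCKO at 17.6 to 20.3, while the points of Hmgcs1 overlap.

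Promoter sequence was examined because many of these genes are textbook targets of SREBP, which binds sterol regulatory elements together with the factors NF-Y and Sp1. RefSeq windows of 250 bases before to 50 after each start (GRCm38.p6) matched 24 of the 29 genes, and Fdft1, Fdps, Scd2, Sqle and Stard4 had none. The promoters below are those of the 4 enzymes that fell at least 1.5-fold, Hsd17b7, Acat2, Nsdhl and Mvk, and of Hmgcs1, which was not called. Each is written 5′ to 3′ on the gene's strand, with the NF-Y motif CCAAT or its complement ATTGG in capitals, and in Hmgcs1 also the match to the sterol element core. The coordinates are chr1:169969242-169969408 (minus) for Hsd17b7, chr17:12960748-12960975 (minus) for Acat2, chrX:72918412-72918520 (plus) for Nsdhl, chr5:114444061-114444268 (plus) for Mvk and chr13:119690101-119690350 (plus) for Hmgcs1. Bases that an annotated exon covers are left out.
Hsd17b7 promoter: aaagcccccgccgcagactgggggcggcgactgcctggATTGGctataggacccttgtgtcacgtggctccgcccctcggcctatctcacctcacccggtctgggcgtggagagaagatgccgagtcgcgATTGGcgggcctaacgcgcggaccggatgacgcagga
Acat2 promoter: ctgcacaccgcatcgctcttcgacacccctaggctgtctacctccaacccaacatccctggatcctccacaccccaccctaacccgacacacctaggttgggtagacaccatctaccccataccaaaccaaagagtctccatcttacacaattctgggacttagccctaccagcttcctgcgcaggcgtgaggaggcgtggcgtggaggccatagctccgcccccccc
Nsdhl promoter: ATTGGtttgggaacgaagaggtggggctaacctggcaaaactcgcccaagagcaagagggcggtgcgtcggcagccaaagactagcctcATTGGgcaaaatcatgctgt
Mvk promoter: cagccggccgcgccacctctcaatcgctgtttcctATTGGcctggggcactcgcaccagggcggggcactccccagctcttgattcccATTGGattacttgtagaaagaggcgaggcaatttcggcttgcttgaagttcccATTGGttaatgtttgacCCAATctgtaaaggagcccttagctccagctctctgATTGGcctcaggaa
Hmgcs1 promoter: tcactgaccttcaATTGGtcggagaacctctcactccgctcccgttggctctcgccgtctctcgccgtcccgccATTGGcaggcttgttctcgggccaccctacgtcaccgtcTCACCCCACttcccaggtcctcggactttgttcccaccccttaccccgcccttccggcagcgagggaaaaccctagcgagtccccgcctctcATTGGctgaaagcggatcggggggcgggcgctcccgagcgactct

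The CCAAT motif, searched on both strands, was present in the windows of 22 of the 24 matched genes (91.7%), against 42.6% of the tested genes with a window and 41.1% of all 27025 genes. Acat2 and Scap were the 2 genes without it. The whole window held 5 matches in Mvk, 4 in Hmgcs1, 4 in Nsdhl and 3 in Hsd17b7. Of these, 5, 3, 2 and 2 lie in the printed stretches, in the same order. The Sp1 motif GGGCGG was present in 21 genes (87.5%), against 67.7% of tested genes and 38.2% of all genes. The sterol element core TCACNCCAC matched 1 gene, Hmgcs1 (4.17%, against 1.41% of tested genes and 1.44% of all), with its first base 137 bases before the start. The E-box type motif TCACNTGA matched 1 gene, Insig2 (4.17%, against 4.7% and 4.78%). No motif contains another. A match describes letters in the window and not a bound site. Looser forms of these motifs, and sequence outside the window, were not searched, so a missing match does not show that a site is absent.

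**Figure D3:**
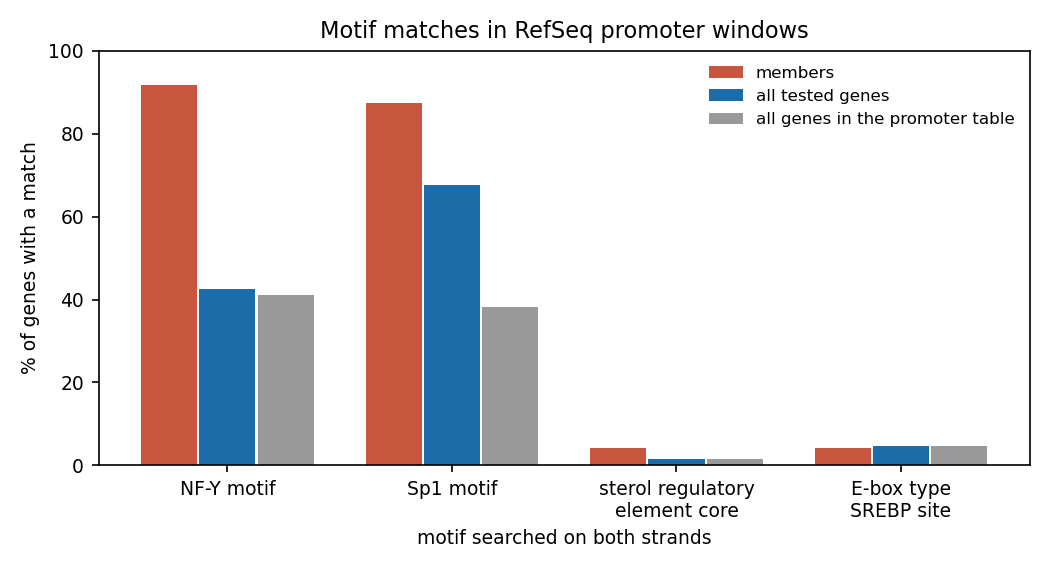
Share of genes (y axis, percent) whose 300-base promoter window holds each motif (x axis), for the 24 matched genes (members), for tested genes and for all genes with a window. CCAAT stands at 91.7% of the 24 genes and 42.6% of tested genes, while the sterol element core stands at 4.17% and 1.41%.

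The genes of the sterol sensor moved in both directions. Srebf1 (ENSMUSG00000020538, minus strand, GRCm38 chromosome 11, 60199089 to 60222581), which encodes the SREBP-1 forms linked to fatty acid synthesis, stood at 56.5, 61.1 and 47.5 normalised CPM in the controls. In MCKO it stood at 72.6, 77.1 and 81.0, and it rose with no overlap (log2 fold change 0.49, SE 0.089). Its exons overlap Rai1 on the opposite strand over 109 bases. Srebf2, which encodes the form linked to cholesterol synthesis, stood at 203, 220 and 184 in controls and at 219, 224 and 226 in MCKO. Those groups overlapped through control replicate 2, and the gene was not called (log2 fold change 0.14, SE 0.061). It was called, as higher, without that library (0.20, edgeR adjusted p = 0.00586) and with no filter on low counts (0.15, 0.0467). The ratio of Srebf1 to Srebf2, each per kilobase of its median transcript length, was 0.273 to 0.295 in controls and 0.352 to 0.380 in MCKO.

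Scap, the escort of the SREBP precursors, stood at 45.9, 54.5 and 42.2 normalised CPM in the controls and at 33.4, 37.4 and 38.4 in MCKO. It fell with no overlap (log2 fold change -0.38, SE 0.097). Insig1, a retention protein that is itself a SREBP target, stood at 36.2, 37.9 and 38.8 in controls and at 33.2, 32.6 and 34.0 in MCKO (log2 fold change -0.18, SE 0.052). Its paralog Insig2 stood at 29.4, 26.9 and 29.3 in controls and at 32.7, 31.5 and 32.7 in MCKO (log2 fold change 0.18, SE 0.057). Insig1 fell and Insig2 rose, both by small amounts, and the near-identical copy of Insig1, Gm37784, held 0 counts in every library. The Insig1 call was lost without MCKO replicate 1 (edgeR adjusted p = 0.0518) or MCKO replicate 2 (0.0657). The Insig2 call was lost under 5 settings, among them library totals (adjusted p = 0.119), DESeq2 (0.0782), and edgeR without control replicate 2 (0.0593), MCKO replicate 1 (0.0748) or MCKO replicate 3 (0.0677).

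The 4 remaining genes move sterols or make fatty acids. Scd2 (ENSMUSG00000025203, plus strand, GRCm38 chromosome 19, 44293674 to 44306864), which puts the first double bond into saturated acyl-CoA, stood at 1002, 974 and 1014 normalised CPM in the controls. In MCKO it stood at 1433, 1413 and 1352, a rise with no overlap (log2 fold change 0.49, SE 0.039). Per kilobase of transcript it had the highest level of the 29 genes, at 183 normalised CPM per kilobase in controls, and Fasn had the lowest at 6.63. Fasn, the fatty acid synthase that acts before Scd2, stood at 55.0, 69.6 and 58.3 normalised CPM in controls and at 39.5, 37.7 and 44.6 in MCKO. It fell by 0.58 on the log2 scale (SE 0.096), so these neighbouring lipogenic genes moved in opposite directions. Acly, which supplies cytosolic acetyl-CoA to both pathways, stood at 267, 270 and 264 in controls and at 224, 227 and 218 in MCKO (log2 fold change -0.26, SE 0.037). Stard4, a cytosolic sterol carrier, overlapped between the groups at 58.3 to 64.9 in controls and 58.5 to 60.7 in MCKO.

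Other genes of the pathway, which are not among the 29, were described in 4 lists. Their counts stand beside 29.3% of all tested genes that rose and 29.1% that fell. These lists, too, were drawn up with earlier results of the comparison known, so nothing is read from their shares. Of 12 genes for SREBP processing and sterol-regulated degradation, 2 rose and 4 fell, with a median log2 fold change of -0.07. Erlin1, an endoplasmic reticulum protein that restrains SREBP activation, fell from 26.1 ± 0.186 to 18.8 ± 0.193 normalised CPM (SD, n = 3 each; log2 fold change -0.47, edgeR adjusted p = 6.52e-05). Rnf145, a sterol-responsive ubiquitin ligase, rose by 0.31 (edgeR adjusted p = 9.43e-05). The COPII coat gene Sec24d fell by 0.33 and the ubiquitin-conjugating enzyme gene Ube2g2 fell by 0.42 (edgeR adjusted p = 0.000482 and 0.000636).

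Of 15 other fatty acid and lipid synthesis targets, 3 rose and 9 fell, beside 29.3% and 29.1% of all tested genes. Their median log2 fold change was -0.23. Elovl6, which elongates palmitate, fell by 0.76 on the log2 scale (edgeR adjusted p = 7.16e-07), and it has a near-identical copy, Gm11295. The desaturase Fads2 fell by 0.65 and the acetyl-CoA carboxylase Acaca fell by 0.45 (edgeR adjusted p = 4.04e-06 and 2.3e-05). Lpin1, a phosphatidate phosphatase, went the other way, from 7.19 ± 0.480 to 22.8 ± 1.47 normalised CPM (SD, n = 3 each; log2 fold change 1.66, edgeR adjusted p = 3.39e-07).

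The list of sterol efflux, esterification and LXR genes had more rises than falls. Of its 16 genes 9 rose and 1 fell, beside 29.3% and 29.1% of all tested genes, with a median log2 fold change of 0.20. Their summed level was 647 to 666 normalised CPM in controls and 949 to 950 in MCKO. Gramd1b, an Aster protein that carries plasma membrane cholesterol to the endoplasmic reticulum, rose from 29.9 ± 1.32 to 96.7 ± 0.343 (SD, n = 3 each; log2 fold change 1.69, edgeR adjusted p = 1.05e-08). Its relative Gramd1c rose by 1.06 (edgeR adjusted p = 1.88e-06). Soat1, which esterifies cholesterol for storage, rose from 108 ± 11.1 to 242 ± 9.60 (SD, n = 3 each; log2 fold change 1.17, edgeR adjusted p = 1.6e-06), and its near-identical copy Gm11032 held 1 to 7 counts in a library. The single fall was Osbpl5, an oxysterol-binding-protein relative (-0.87, edgeR adjusted p = 3.31e-06). No test set this list against the synthesis enzymes.

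Isoprenoid branches beyond Fdps and Ggps1 were represented by 16 genes, with a median log2 fold change of -0.18. Of these 2 rose and 8 fell, beside 29.3% and 29.1% of all tested genes. The ubiquinone side-chain synthase genes Pdss1 and Pdss2 fell by 0.69 and 0.54 (edgeR adjusted p = 3.8e-05 and 0.000787). Icmt, which methylates prenylated proteins, fell by 0.48, and the dolichol synthesis gene Dhdds fell by 0.50 (edgeR adjusted p = 7.39e-05 and 0.000125).

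**Figure D4:**
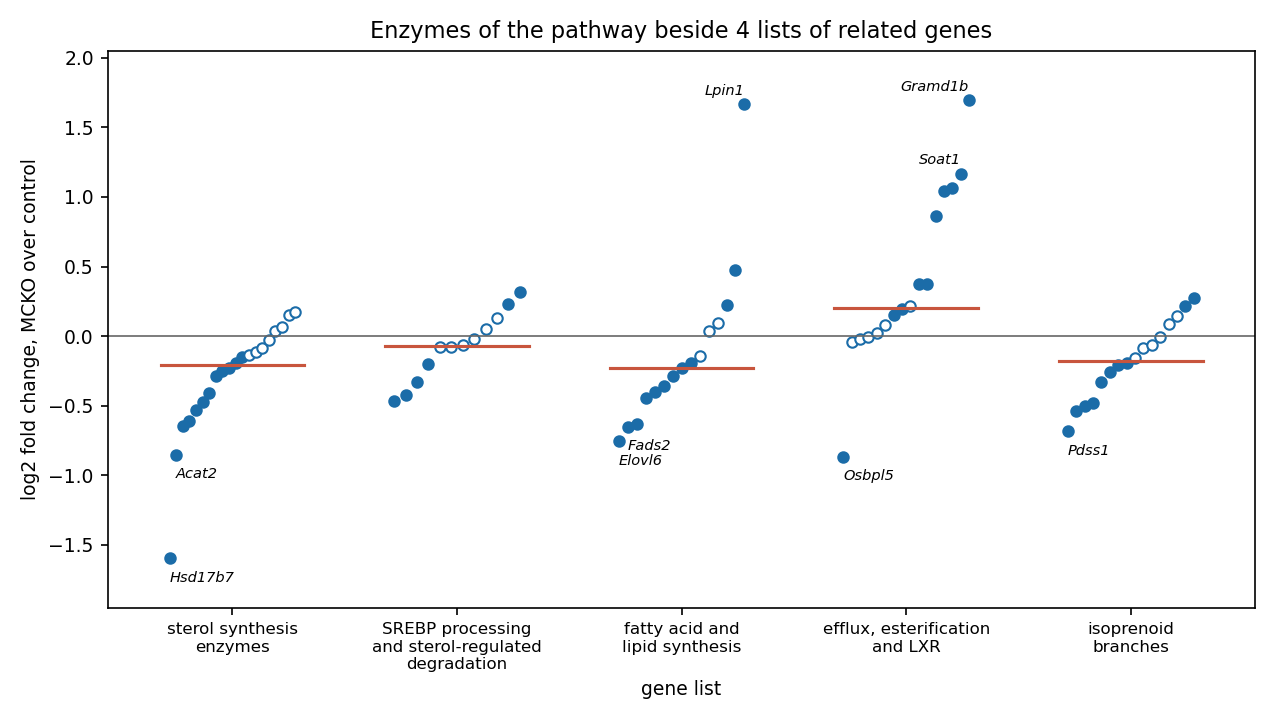
Log2 fold change of MCKO over control (y axis) for every gene of the 20 synthesis enzymes and of the 4 related lists (x axis, 1 column a list, genes in order of value), with called genes filled and a red line at the median of each list. The efflux, esterification and LXR genes reach up to 1.69 with a median of 0.20, while the synthesis enzymes have a median of -0.21.

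In bulk hearts, fewer cells of a type and less RNA per cell cannot be told apart. Markers of several cell types moved with the groups, in a comparison where 29.3% of all tested genes rose and 29.1% fell. Cardiomyocyte markers defined the tissue in both groups, with 5 of 10 higher in MCKO and none lower (summed 34160 to 38020 normalised CPM in controls, 42810 to 44740 in MCKO). Endothelial and endocardial markers gave 8 higher and 2 lower of 10 (1155 to 1175, then 1430 to 1452). All 10 primitive red cell markers rose (3033 to 3353, then 6641 to 7112). Of 7 epicardial markers tested 6 fell (198 to 209, then 84.9 to 86.6). Endoderm, liver bud and yolk sac markers gave 5 higher and 4 lower of 9 tested (17.02 to 19.5, then 17.6 to 18.2). Among the 4 lower, the liver markers Afp and Alb had means of 11.2 and 0.982 in controls and 0.103 and 0 in MCKO. Among the 5 higher, Epcam had a mean of 0.879 in controls and 5.53 in MCKO. Of 5 neural markers tested 2 rose and 2 fell (22.6 to 28.5, then 10.2 to 11.2), with Foxd3 at 0 in every library. Of 4 leukocyte markers tested 2 fell (13.6 to 14.4, then 2.71 to 3.998). The part of these cell types in the values of the sterol genes was not tested.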

How the data were processed

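RNA was isolated from whole E9.5 mouse hearts and sequenced from stranded mRNA libraries, per the labels' protocols. The authors deposited 1 table of estimated counts, whole numbers for each Ensembl gene with no normalisation for depth or length. Per the submitters' processing notes, kallisto and the build mm10 were used. Their versions, the transcript set and the strand setting are not stated in the labels. Such estimates divide reads between near-identical transcripts, so copies are named where minimap2 aligned at least 80% of a transcript at 95% identity or more. Knockout columns, named CKO, were matched to the MCKO titles by the rest of the name.

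All genes were fitted together with edgeR 4.0.16 in R 4.3.3 (filterByExpr, TMM, robust quasi-likelihood, group as the only term, 2-sided, Benjamini-Hochberg adjustment, called under 0.05), after a test on simulated data. Gene positions came from GENCODE M21 on GRCm38 and promoters from RefSeq. The text names Cdc42, all 29 genes and up to 4 called genes per related list by smallest p, plus marker genes. Members, lists and rules were chosen with earlier results of these data known. The 15 alternatives used other size factors, unscaled totals, other filters, DESeq2 1.42.0, limma voom 3.58.1, a replicate block, copies summed, no mitochondrial genes and leaving out each library. Replicates of a group differed by more than sampling noise (chi-square per degree of freedom 3.46 to 14.5), so none was taken for a duplicate.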

Additional observations from a re-analysis of the deposited data

How the results depend on the processing

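Over the 15 alternatives, the number of the 29 genes called ran from 15 to 21 (19 in the reported analysis), with 2 to 4 higher and 13 to 17 lower. The log2 fold change of Cdc42 ran from -0.72 to -0.62. The counts called among all genes (7452 to 8766) and in the 4 related lists (5 to 7, 9 to 12, 8 to 10 and 8 to 10, in the order given above) stayed within 1.5 times. With the replicate block, 7765 genes were called, among them 3 higher and 14 lower of the 29. The Lbr and Pmvk calls were lost in it (edgeR adjusted p = 0.0886 and 0.0504). Same-numbered libraries did not deviate together (correlations -0.0428, 0.0356 and -0.2), so the numbers were not taken as pairs. Library totals moved the median of all genes by -0.06. Hmgcs1 was called with library totals (-0.20, adjusted p = 0.0232) and Srebf2 with no filter (0.15, 0.0467). All 29 genes lay far above the level of 3 counts, and the number of libraries, 3 a group, limits what small differences can show.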
